A study of Mus musculus with 32 samples.

Results

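The FOS and JUN family genes on this array were Fos, Fosb, Fosl2, Jun, Junb and Jund, chosen as every probe whose gene name is one of these symbols. They were 6 of 35019 gene names and 7 of 55681 probes, 1 probe for each gene and 2 for Fosl2. Their levels were followed in mouse B lineage cells on 32 2-colour arrays. On 24 arrays the RNA of 1 sample (Cy5) was set against a common RNA pool that held tumour, GC B cell and splenic B cell RNA, the last from both genotypes, resting or stimulated (Cy3). Values on these arrays are log2 ratios to that pool, so they compare samples for 1 gene and not the levels of different genes. On the other 8 arrays PCI-32765-treated cells (Cy5) were set against DMSO-treated cells of the same line and time (Cy3). The pool samples were 9 ATMKO.CD3epsilonKO lymphoma cell lines (12 arrays), splenic B cells from ATMKO.CD3epsilonKO mice (untreated, and anti-IgM for 3 h, 6 h and 24 h) and from ATMWT.CD3epsilonKO mice (untreated, and anti-IgM for 6 h), and germinal centre (GC) B cells of ATMWT mice immunised with SRBC (3 arrays). Anti-IgM, which crosslinks the B cell receptor, was used at 15 ug/ml. The drug arrays came from 2 further ATMKO.CD3epsilonKO lymphoma lines, 178119 and 28545, at 100 nM of PCI-32765, an inhibitor of the receptor-proximal kinase BTK, for 1 h, 3 h, 6 h and 24 h. Lymphoma lines, CD3epsilonKO splenic cells and GC cells without that label differ in ATM genotype, growth in culture and malignancy, which cannot be told apart in a contrast with GC B cells. Growth as a cell line and malignancy cannot be told apart in contrasts of the lines with splenic B cells either. For the 6 h anti-IgM samples 1 label field gives 3 hours while the titles give 6 h, and the titles were followed.

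FOS proteins pair with JUN proteins through leucine zippers to form AP-1, a transcription factor that binds TGANTCA sites. FOS proteins do not form stable pairs with each other, whereas JUN proteins pair with each other as well. Fos, Fosb, Jun and Junb are immediate early genes: resting cells can start their transcription within minutes of a signal, MAP kinases and SRF with its ETS partners act on their promoters, and the transcripts are short-lived. In B cells, crosslinking of the receptor is a classical trigger of that first wave.

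Promoter stretches of Fos, Jun and Junb are shown because these genes fell with the BTK inhibitor below and hold a CRE-type motif just before the start. That of Fosb, which fell too, is left out because its start lies inside a longer gene model. They are the 150 bases before the start site in RefSeq on GRCm38.p6, read on the gene's strand, with TGACG, TGACATCA and TATAAA in capitals.
Fos, chr12:85473740-85473889, plus strand: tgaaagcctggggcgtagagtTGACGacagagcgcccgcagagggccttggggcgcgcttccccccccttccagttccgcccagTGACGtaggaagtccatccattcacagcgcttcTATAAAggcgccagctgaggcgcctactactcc
Jun, chr4:95052223-95052372, minus strand: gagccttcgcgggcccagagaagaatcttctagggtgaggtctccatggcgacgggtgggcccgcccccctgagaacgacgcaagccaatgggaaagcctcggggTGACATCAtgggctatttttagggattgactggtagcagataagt
Junb, chr8:84978749-84978898, minus strand: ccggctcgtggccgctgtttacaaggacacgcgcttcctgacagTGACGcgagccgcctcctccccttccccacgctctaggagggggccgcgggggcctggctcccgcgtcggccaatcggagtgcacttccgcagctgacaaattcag
Motifs were searched on both strands over the 250 bases before the start of 32851 RefSeq promoter entries, and all 6 members had an entry. TGACG, the core shared by CRE sites, stood at -129 and -66 in Fos, at -60 in Fosb and at -106 in Junb, and 17.8% of all entries hold it. TGACATCA, a site described in the Jun promoter, stood at -45 in Jun, and 2.93% of entries hold it. TATAAA stood at -33 in Fos, and 12.4% of entries hold it. The letters TGANTCA (6.75% of entries) and TGACGTCA (1.55%, and an overlap with TGACG) were in none of the 6 windows, and Fosl2 and Jund held none of these CRE-type or AP-1 letters. The CArG box (CC, then 6 bases of A or T, then GG) was in none of the 6 windows either, and 1.47% of entries hold it. GGAAG, an extension of the ETS core GGAA, was in every window but that of Jun, and 64.1% of entries hold it. GGAA alone was not searched, and the Jun stretch shown above holds it within gggaaag. Sites beyond the 250 bases were not searched.

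The probes lie on mm9 as the array design places them. The Fos probe is at chr12:86817900-86817959 (plus strand, 10 spots an array) and the Fosb probe at chr7:19888168-19888227 (minus). The Fosl2 probe that represents the gene is at chr5:32460076-32460135 (plus). The Jun probe is at chr4:94716928-94716987 (minus), the Junb probe at chr8:87501881-87501940 (minus) and the Jund probe at chr8:73224436-73224495 (plus). The other Fosl2 probe (chr5:32455088-32455147, plus) stayed between -0.32 and 0.42 in all pool samples and near background, and was not used.

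On 29 arrays between 45.6% and 60.7% of spots were well above background in Cy5. The first GC array (29.4%) and the first array of line 1039 (21.9%) were below that range, and the 24 h array of line 28545 (85.5%) was above it. Some results that rest on the first 2 are therefore also given without them. Over probes above background in Cy5 on either array, Pearson's r of the first GC array with its repeats was 0.077 and 0.076, against 0.978 between those. The 2 arrays of line 1039 gave 0.358, and other repeat pairs 0.648 (in untreated ATMKO cells) to 0.964. On the first GC array Fosb, Jun, Junb and Jund were not well above background in either channel, and Fos and Fosl2 not in Cy5. GC values over 3 arrays include it. The Atm probe read -1.54 to -0.34 in the 13 ATMKO pool samples and 0.42 to 0.65 in the 3 ATMWT samples, without overlap. Cd3e read -0.64 to 1.15 in the ATMKO samples and -1.84 to 0.98 in the ATMWT samples. The latter hold CD3epsilonKO splenic cells as well as GC B cells without that label. These ranges therefore do not show whether Cd3e followed the labelled deletion. The place of its probe relative to the deletion was not tested. The mean of 7 B cell markers lay between -1.01 and 0.51 in every pool sample. The mean of the GC B cell markers was 1.01 in GC B cells against -1.05 to -0.45 in the lymphoma lines, -2.26 to -1.84 in untreated and -3.30 to -2.47 in stimulated splenic B cells. Arrays called technical repeats were averaged, and nothing in the labels says that samples of 1 group other than the lines came from separate animals, so p-values measure only the spread between these samples, which may be technical.

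Fos was high in resting splenic B cells and GC B cells and low in the lymphoma lines and in stimulated B cells. Its log2 ratio to the pool was 2.08 in untreated ATMWT and 1.57 in untreated ATMKO B cells. In GC B cells it was 0.65 over 3 arrays that ran from -0.21 to 1.09, and 1.07 without the first of them. After anti-IgM it was -1.89 at 3 h, -3.83 at 6 h and -3.96 at 24 h in ATMKO cells. The ATMWT sample read -3.66 at 6 h. In the lymphoma lines it was -2.44 in 1001, -2.86 in 1004, -0.66 in 1007, -3.67 in 1010, -2.82 in 1013, -3.31 in 1016, -3.14 in 1019, -2.96 in 1036 and -1.10 in 1039 (-1.99 without the first 1039 array). Lines 1007 and 1039 were the highest, and still lay below both untreated samples and the GC sample. The lines averaged -2.55 ± 1.01 (SD, n = 9), which overlapped the stimulated samples.

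Fosb, a second FOS protein that also has a short form without the activation domain, was also high in untreated and low in stimulated splenic cells. It read 2.47 in untreated ATMKO and 0.98 in untreated ATMWT cells, and -1.07 at 3 h, -3.24 at 6 h and -3.56 at 24 h of anti-IgM in ATMKO cells, with -3.33 in the ATMWT cells at 6 h. The lymphoma lines ran from -2.19 (line 1019) over a median of -0.93 to 0.15 (line 1007), with a mean of -0.91 ± 0.80 (SD, n = 9), and the GC sample read -0.22 (-0.47 without its first array). Fosb in GC B cells therefore lay inside the range of the lines.

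Fosl2, which encodes the FOS relative FRA2, was the member that set the lymphoma lines and GC B cells apart from all splenic samples. It read 1.40 in untreated ATMKO cells and 1.01, 0.64 and 0.32 after 3 h, 6 h and 24 h of anti-IgM. In ATMWT cells it read -0.86 untreated and 0.84 at 6 h. The lymphoma lines ran from -3.62 (line 1016) over a median of -3.23 to -1.61 (line 1039), with a mean of -3.06 ± 0.60 (SD, n = 9). Without the first 1039 array that line read -3.22 and the mean was -3.24 ± 0.27 (SD). The GC sample read -2.66 over arrays from -3.56 to -0.89, and -3.55 without the first. These low values are near the limit of the arrays: the probe was well above background on 2 of 12 lymphoma arrays and on 0 of 3 GC arrays, against 4 of 4 untreated and 5 of 5 stimulated arrays. Sizes of Fosl2 differences that involve lymphoma lines or GC B cells therefore depend on how background is handled.

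Jun, which forms the most studied AP-1 pair with Fos, read 1.62 in untreated ATMWT and 1.40 in untreated ATMKO B cells. It read -0.32 at 3 h, -1.75 at 6 h and -1.23 at 24 h of anti-IgM in ATMKO cells, with -1.74 in the ATMWT cells at 6 h. The lymphoma lines ran from -1.36 (line 1016) over a median of -0.59 to 0.07 (lines 1004 and 1007), with a mean of -0.57 ± 0.47 (SD, n = 9), and GC B cells read -0.39 (-0.52 without the first array). The Jun spot of line 1016 was dim on its only array, with a mean log2 intensity of both channels of 9.46. Other lymphoma arrays, apart from the first 1039 array, read 12.97 to 13.93 there, so the value of line 1016 is uncertain. The next lowest line was 1019 at -1.005. Only the untreated samples stood clear of all others.

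Junb, a JUN protein with weaker transactivation than Jun, moved over a narrower range. It read 0.93 in untreated ATMWT and 1.25 in untreated ATMKO cells, then 0.73 at 3 h, -0.25 at 6 h and -0.55 at 24 h in ATMKO cells, with -0.68 in the ATMWT cells at 6 h. The lymphoma lines ran from -1.12 (line 1019) over a median of -0.57 to -0.26 (line 1013), with a mean of -0.59 ± 0.28 (SD, n = 9), all below the GC sample at -0.19.

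Jund, the JUN gene that many resting cells express steadily, was the 1 member whose lymphoma levels lay above those of stimulated cells and of GC B cells in every line. It read 0.49 in untreated ATMWT and 1.75 in untreated ATMKO cells, -1.33 at 3 h, -0.72 at 6 h and -0.33 at 24 h in ATMKO cells, with -0.73 in the ATMWT cells at 6 h. The lymphoma lines ran from -0.14 (line 1016) over a median of 0.40 to 0.87 (line 1004), with a mean of 0.34 ± 0.34 (SD, n = 9). The GC sample read -0.15 (-0.22 without its first array), just below line 1016.

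**Figure D1:**
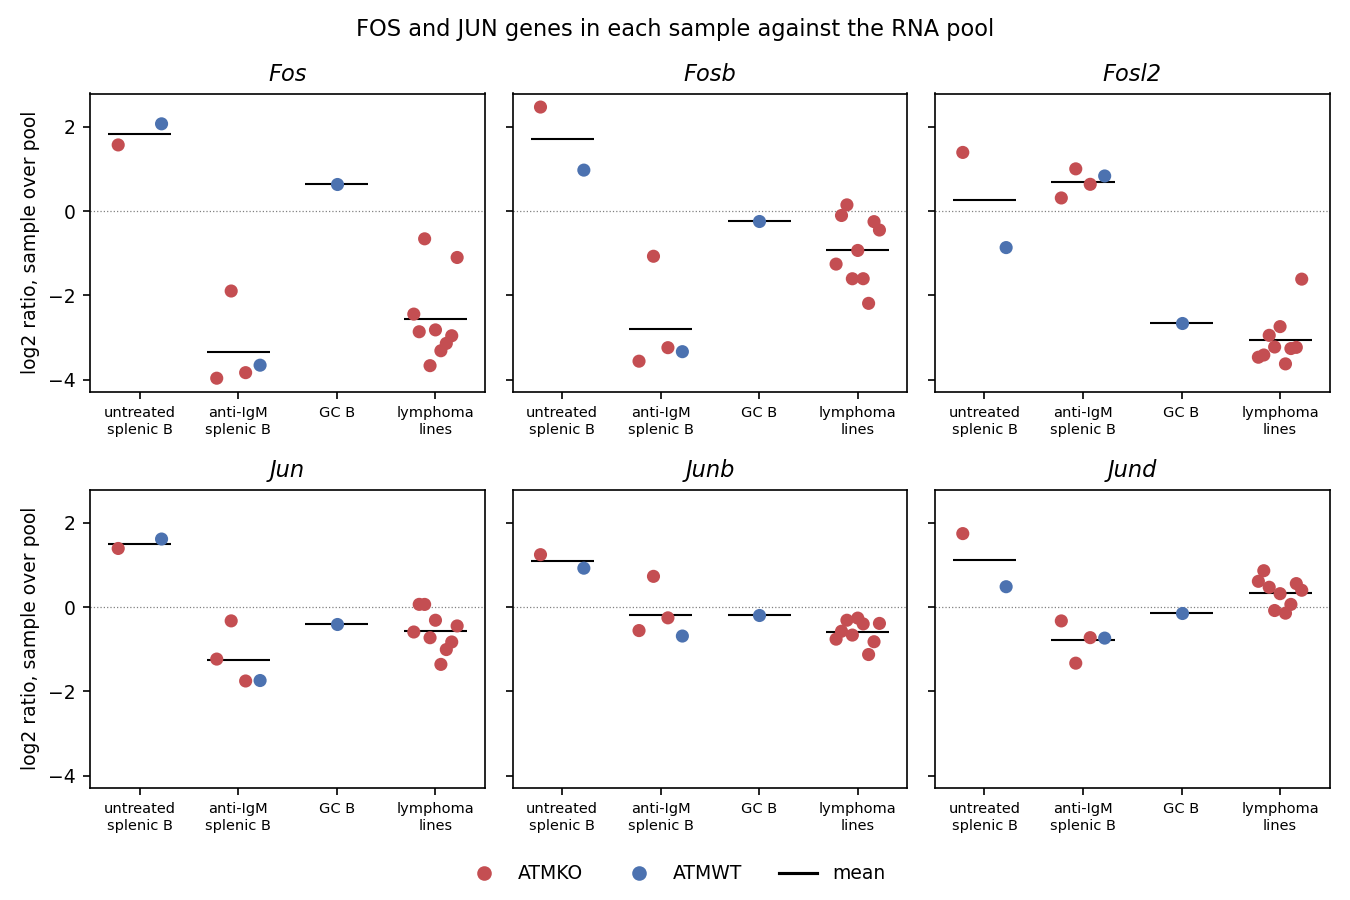
Log2 ratio to the common pool (vertical axis) of the 6 genes in the 16 pool samples, 1 point per sample and 1 panel per gene, by group (untreated and anti-IgM splenic B cells, GC B cells, lymphoma lines), coloured by ATM genotype with a bar at the group mean. Fos, Fosb, Jun and Junb are highest in the 2 untreated samples, and Fosl2 is lowest in the lymphoma lines and the GC sample. The Jund points of the lines lie above all stimulated samples.

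Against untreated splenic B cells, 5 of the 6 members fell in the lymphoma lines in a limma fit of the 16 pool samples. In that comparison 21.1% of the 21399 genes tested were called lower, and the median log2 difference was -2.36 over the members and -0.01 over all genes. Fos fell by 4.37 ± 0.69 (SE; adjusted p = 0.000193), a 20.7-fold lower level and rank 143 from the lowest of all genes. Fosl2 fell by 3.32 ± 0.50 (adjusted p = 0.000126; -5.75 in the scanner log ratio, -1.68 as the mean of both probes) and Fosb fell by 2.64 ± 0.67 (adjusted p = 0.0062). Jun fell by 2.08 ± 0.37 (adjusted p = 0.000565) and Junb fell by 1.67 ± 0.30 (adjusted p = 0.000474). Each of these 5 was below both untreated samples in 9 of 9 lines. Jund differed by -0.77 ± 0.32 (adjusted p = 0.0694) and was below both in 6 of 9 lines. Without the untreated ATMKO sample the Fosb call was lost (-1.89, adjusted p = 0.153) and Fosl2 differed by -2.19, while without the untreated ATMWT sample Fosl2 differed by -4.45 and Jund was called (-1.41, adjusted p = 0.0129). Jund was also called without line 1004 (-0.84, adjusted p = 0.0476) and with the slide as a block (-0.85, adjusted p = 0.0132). That setting, here and below, fitted single arrays with the slide as a fixed term and the sample as a random block.

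Markers of other spleen cells were lower in the lymphoma lines as well. The mean log2 ratio of the T cell markers was -2.19 to -0.83 in the lines against 0.70 to 0.72 in untreated samples, and that of neutrophil markers was -4.66 to -2.72 against 1.17 to 1.34. Macrophage markers averaged -2.73 to -1.37 against 0.61 to 0.63, NK cell markers -2.70 to -1.19 against 1.29 to 1.40, erythroid markers -2.86 to -1.65 against 1.28 to 1.75 and stromal markers -3.09 to -1.57 against 0.96 to 1.31. Of the markers tested, 7 of 9 T cell, 5 of 6 NK, 6 of 8 macrophage, 6 of 7 neutrophil, 6 of 6 erythroid and 4 of 4 stromal genes fell. Their part in the fall of the 5 members was not tested. In bulk RNA such as this, fewer cells of a type and less RNA per cell cannot be told apart.

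Against stimulated splenic B cells the members split. In this comparison 24.8% of genes were called lower and 21.2% higher. Fosl2 fell by 3.76 ± 0.38 (adjusted p = 2.3e-06) and was lower than all 4 stimulated samples in 9 of 9 lines. Because most lymphoma arrays read it at background, the size is uncertain, with -6.31 in the scanner log ratio and -1.97 as the mean of both probes. Jund rose by 1.12 ± 0.24 (adjusted p = 0.00163) and was above all 4 in 9 of 9 lines, and Fosb rose by 1.89 ± 0.51 (adjusted p = 0.0074) and was above all 4 in 5 of 9. Fos (0.79, adjusted p = 0.246), Jun (0.69, adjusted p = 0.0618) and Junb (-0.40, adjusted p = 0.17) did not pass. Jun passed without the 3 h ATMKO sample (1.01, adjusted p = 0.00697), without line 1016 (0.79, adjusted p = 0.0287) and with the slide as a block (0.76, adjusted p = 0.0149). The Jun spot of line 1016 was dim. Means of neutrophil markers (0.27 to 1.38) and stromal markers (-0.77 to 0.62) in stimulated cells were again above those of the lines, and their part in the Fosl2 difference was not tested.

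Against GC B cells, Fos was the member that passed, where 5.36% of genes were called lower. It fell by 3.20 ± 0.93 (SE; adjusted p = 0.0432) and was lower in 9 of 9 lines. Which of the 3 GC arrays is the biological repeat is not given, so they were treated as 1 sample, and the spread of the other groups stands in for its own. Without the first GC array the difference was -3.62 (adjusted p = 0.0177), and without both poor arrays (the first GC and the first 1039 array) -3.72 (adjusted p = 0.00852). The call was lost in 16 of 29 alternatives, over which the adjusted p ran from 0.00852 to 0.228. Leaving out any 1 of lines 1001, 1004, 1010, 1013, 1016, 1019 or 1036, or of the untreated or 6 h samples of either genotype, gave differences of -3.21 to -3.06 with adjusted p from 0.0529 to 0.0603. Fosb (-0.69, adjusted p = 0.707), Fosl2 (-0.40, adjusted p = 0.784), Jun (-0.18, adjusted p = 0.881), Junb (-0.39, adjusted p = 0.609) and Jund (0.49, adjusted p = 0.538) did not pass. Still, Junb was below the GC sample and Jund above it in 9 of 9 lines, of which line 1016 had a dim Junb spot.

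GC B cells set against untreated splenic B cells gave 2 calls among the members, where 6.92% of genes were called lower. Fosl2 fell by 2.93 ± 0.78 (adjusted p = 0.0246) and Jun fell by 1.90 ± 0.59 (adjusted p = 0.0497). Fosb (-1.95, adjusted p = 0.269), Junb (-1.28, adjusted p = 0.0918), Jund (-1.26, adjusted p = 0.12) and Fos (-1.18, adjusted p = 0.563) did not pass. Without the first GC array Fosl2 fell by 3.81 (adjusted p = 0.00368) and Jun fell by 2.02 (adjusted p = 0.0274). The Jun call was lost in 19 of 29 alternatives, among them without the untreated ATMWT sample (adjusted p = 0.156), the untreated ATMKO sample (adjusted p = 0.115), either 6 h sample, the 24 h sample, or any of lines 1001, 1010, 1013, 1019, 1036 and 1039. The Fosl2 call was lost in 5 of 29, among them without the untreated ATMKO sample (-1.80) and with the slide as a block (-3.02, adjusted p = 0.0774). With that block Jund (-1.47, adjusted p = 0.017) and Junb (-1.25, adjusted p = 0.024) passed as well as Jun (-1.80, adjusted p = 0.0127). Fosl2 differed by -5.51 in the scanner log ratio and by -1.49 as the mean of both probes (adjusted p = 0.0529). Junb passed without the 3 h ATMKO sample (adjusted p = 0.0152) and Jund without the untreated ATMWT sample (-1.89, adjusted p = 0.0316). T cell (-1.72), NK (-1.87), macrophage (-2.15), neutrophil (-3.45), erythroid (-2.07) and stromal (-1.98) marker means were lower in the GC sample than in untreated cells too, and their part was not tested.

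**Figure D2:**
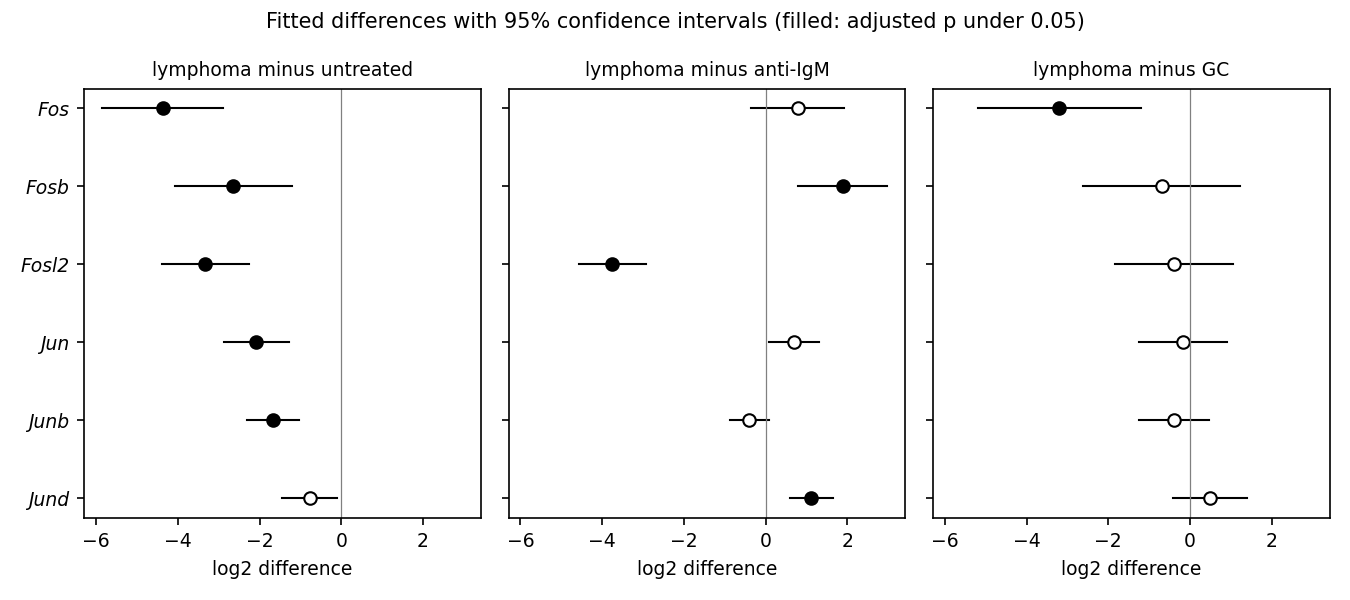
Log2 differences (horizontal axis) of the 6 genes between the lymphoma lines and untreated splenic B cells, anti-IgM-stimulated splenic B cells or GC B cells, 1 panel each, as points with bars for 95% confidence intervals, filled where the adjusted p by limma passed 0.05. Fos has the lowest value against untreated cells (-4.37) and GC B cells (-3.20), and Fosl2 the lowest against stimulated cells (-3.76).

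Fos and Fosb had the lowest differences of all genes tested between stimulated and untreated splenic B cells. Over both genotypes, the 4 stimulated samples differed from the 2 untreated ones by -5.18 ± 0.68 (SE) for Fos, rank 1 from the lowest of 22302 genes, and by -4.78 for Fosb, rank 2. Jun differed by -2.84 (rank 11), Jund by -2.01 (rank 61) and Junb by -1.41 (rank 245), and these 5 were below both untreated samples in 4 of 4 stimulated samples. Fosl2 differed by 0.23. The labels name no untreated sample kept for 3 h, 6 h or 24 h, so anti-IgM and time in culture cannot be told apart. This fit held 6 samples, a genotype term and 3 residual degrees of freedom. It had no term for time. Differences between the 3 h, 6 h and 24 h samples therefore counted as spread or entered the genotype term. In this fit 0% of genes passed, with 0 genes by limma at adjusted p and 1686 at an unadjusted p under 0.05. Adjusted p was 0.476 for Fos and 0.508 for Fosb. In the 6 h and untreated samples alone Fos differed by -5.57, and counts for that fit are given below under processing. With the slide as a block Fos (-4.97, adjusted p = 0.0308), Fosb (-4.52, adjusted p = 0.0399) and Jun (-2.86, adjusted p = 0.0423) passed. In a fit of all 16 pool samples, added after the data were seen, which borrows the spread of the lymphoma lines and has no genotype term, 143 of 21399 genes passed. Fos (-5.16, adjusted p = 0.00776), Fosb (-4.53, adjusted p = 0.0135), Jun (-2.77, adjusted p = 0.00816) and Jund (-1.89, adjusted p = 0.0255) fell in that fit, and Junb (-1.28, adjusted p = 0.104) and Fosl2 (0.43, adjusted p = 0.882) did not pass. Within the 3 slides that hold both groups, Fos differed by -5.89, -4.39 and -5.38, Fosb by -4.42, -4.42 and -5.90, Jun by -3.11, -2.54 and -3.10, Junb by -1.55, -0.89 and -1.73, Jund by -1.02, -2.77 and -2.37 and Fosl2 by 1.44, -0.42 and -0.78. Erythroid marker means were 1.28 to 1.75 in untreated and -1.75 to 1.13 in stimulated samples, and NK means 1.29 to 1.40 and -0.56 to 0.71. T cell (0.70 to 0.72 against -0.16 to 0.43), stromal (0.96 to 1.31 against -0.77 to 0.62), B cell (0.17 to 0.22 against -1.01 to -0.10) and GC B cell means (-2.26 to -1.84 against -3.30 to -2.47) were lower after stimulation too, and macrophage (0.61 to 0.63 against -0.36 to 1.00) and neutrophil means (1.17 to 1.34 against 0.27 to 1.38) overlapped. Their part was not tested.

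The members did not share 1 course over the stimulation. In ATMKO cells the difference from the untreated sample was -3.47 for Fos at 3 h, -5.41 at 6 h and -5.54 at 24 h. Fosb differed by -3.54, -5.71 and -6.03 and Junb by -0.52, -1.50 and -1.80, so both continued downward in these single samples. Jun read -1.72, -3.15 and -2.63. Jund had its lowest value at 3 h (-3.08), with -2.47 at 6 h and -2.07 at 24 h. In ATMWT cells at 6 h the differences were -5.73 for Fos, -4.31 for Fosb, -3.36 for Jun, -1.61 for Junb and -1.22 for Jund. Each time point is 1 sample, so the order of the times was not tested, and earlier times than 3 h, when these genes classically peak, are not analysed here.

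**Figure D3:**
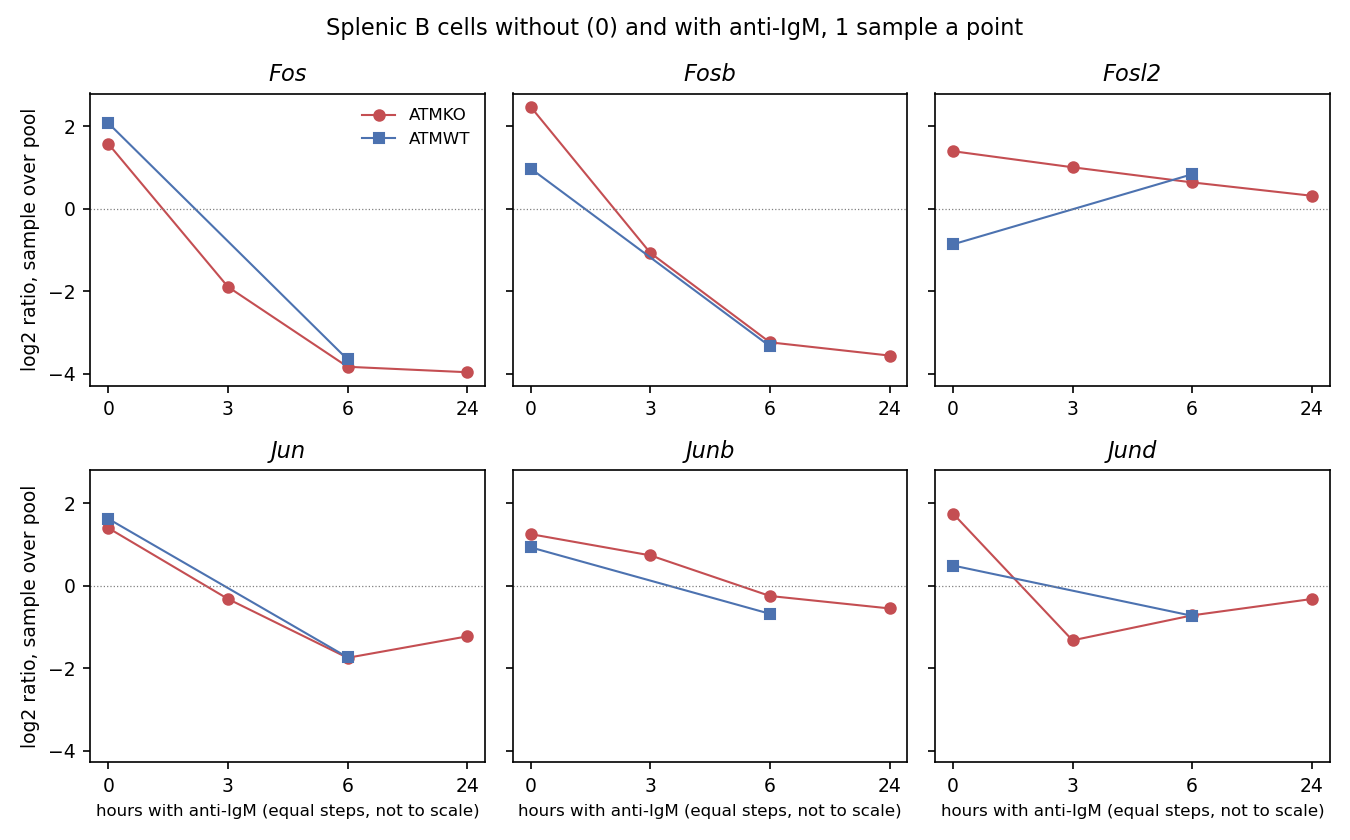
Log2 ratio to the pool (vertical axis) against hours of anti-IgM (horizontal axis) for each gene, with 1 point per sample for ATMKO and ATMWT splenic B cells and times at equal steps, not to scale. Fos falls from 1.57 to -3.96 and Fosb from 2.47 to -3.56 over 24 h in ATMKO cells, and the genotypes lie close together at 6 h. No untreated sample of a later time is named in the labels, so anti-IgM and time in culture cannot be told apart.

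Between genotypes no member passed. The ATMKO minus ATMWT difference over splenic B cells was 1.03 for Fosb, 0.79 for Fosl2, 0.52 for Junb, 0.47 for Jund, 0.29 for Jun and 0.06 for Fos, each with an adjusted p of 1, and 0% of genes were called (0 genes by limma, 128 at an unadjusted p under 0.05). In untreated cells alone, Fosl2 was 2.26, Fosb 1.50, Jund 1.26 and Junb 0.32 higher in the ATMKO sample, whereas Jun differed by -0.22 and Fos by -0.50. At 6 h of anti-IgM these differences lay between -0.20 (Fosl2) and 0.43 (Junb), with -0.18 for Fos and -0.01 for Jun. The 3 h and 24 h samples were ATMKO only, and without a term for time the fitted differences mix genotype with time. For Fos and Jun the fitted values were positive, while the matched differences in untreated cells and at 6 h were negative. Both ATMWT splenic samples are 1 array each on 1 slide.

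The 4 members that could be tested fell with PCI-32765 in 2 lymphoma lines. As the mean of the 4 times, where 15.7% of 17920 genes were called lower, Fosb fell by 1.12 ± 0.06 (SE; adjusted p = 3.76e-06) and Fos fell by 1.07 ± 0.05 (adjusted p = 1.26e-06). Junb fell by 0.89 ± 0.10 (adjusted p = 0.000125) and Jun fell by 0.75 ± 0.09 (adjusted p = 0.000201). Junb and Jun were below 0 on 8 of 8 arrays, Fos and Fosb on 6 of 8. The 8 arrays are 2 lines at 4 times and were fitted as independent, so SEs and p-values rest on 2 lines. Jund had no value on 1 array, and the Fosl2 probe was well above background on 1 of 8 arrays, so neither was tested. Loess centres the log ratios of each array around 0 at every intensity. With each array only centred on its median log ratio over all probes, the median of tested genes was 0.42 and 12994 genes were called higher against 114 lower (3001 against 2810 with loess), so a fall is here relative to that centre. Under that centring Fos (-0.70, adjusted p = 5.34e-07), Fosb (-0.62) and Junb (-0.42) still passed and Jun did not (-0.16, adjusted p = 0.17).

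Fos was the fastest. On the 1 h arrays it read -1.61 in line 178119 and -1.72 in line 28545, then -1.78 and -1.74 at 3 h, -1.08 and -0.90 at 6 h and 0.11 and 0.14 at 24 h. Its fall of 1.66 at 1 h (adjusted p = 7.07e-05) was the fourth lowest of all genes (rank 4), at a time when 0.0725% of genes, 13 in number, were called lower. Line 178119 was the higher of the lines at 1 h and the lower at the other times.

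Fosb was lower at 3 h than at 1 h in both lines. It read -1.23, -2.42, -1.63 and 0.52 in line 178119 and -0.77, -2.24, -1.54 and 0.32 in line 28545 at 1 h, 3 h, 6 h and 24 h. At 1 h it fell by 1.00 (adjusted p = 0.0133), a call lost without the 178119 array (-0.77, adjusted p = 0.294) and under median centring (-0.31, adjusted p = 0.209).

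Junb read -1.19, -1.55, -0.98 and -0.09 in line 178119 and -0.26, -1.31, -1.24 and -0.53 in line 28545. Jun read -0.55, -1.44, -1.05 and -0.80 in line 178119 and -0.29, -0.64, -0.95 and -0.32 in line 28545. Line 178119 was the lower of the lines for Jun at every time, but the line difference of 0.41 ± 0.13 did not pass (adjusted p = 1), and 0% of genes did (0 genes by limma, 643 at an unadjusted p under 0.05).

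At 3 h all 4 tested members fell, where 4.12% of genes were called lower. Fosb fell by 2.33 (adjusted p = 7.63e-06, rank 9), Fos fell by 1.76 (adjusted p = 7.78e-06), Junb fell by 1.43 (adjusted p = 0.00253) and Jun fell by 1.04 (adjusted p = 0.00848). Without the 178119 array of that time Jun (-0.64, adjusted p = 0.23) and Junb (-1.31, adjusted p = 0.0828) did not pass, and under median centring Jun (-0.22) did not. At 6 h, where 12.3% of genes were called lower, all 4 fell as well, Fosb fell by 1.59 (adjusted p = 5.87e-05), Junb fell by 1.11 (adjusted p = 0.00297), Jun fell by 1.00 (adjusted p = 0.00347) and Fos fell by 0.99 (adjusted p = 0.000145). Jun missed the threshold without the 178119 array of 6 h (adjusted p = 0.0676). At 1 h Junb (-0.72, adjusted p = 0.173) and Jun (-0.42, adjusted p = 0.295; 0.38 under median centring) did not pass, and Junb passed without the 28545 array (-1.19, adjusted p = 0.0365).

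At 24 h Fos and Fosb were above 0 on both arrays, and Jun and Junb were below 0 on both. Called genes at 24 h were 12% lower and 11.1% higher. Fosb rose by 0.42 (adjusted p = 0.0332) and Jun fell by 0.56 (adjusted p = 0.0478), whereas Fos (0.13, adjusted p = 0.375) and Junb (-0.31, adjusted p = 0.281; 0.079 under median centring) did not pass. Both calls rest on single arrays: Fosb did not pass without either 24 h array (0.32, adjusted p = 0.259 without 178119, and 0.52, adjusted p = 0.0633 without 28545) or either 3 h array, and Jun did not pass without the 1 h or 6 h array of either line or the 24 h array of 178119 (-0.32, adjusted p = 0.432). Tested directly as 24 h minus 1 h, where 3.42% of genes were called higher, Fos rose by 1.79 (adjusted p = 0.000209) and Fosb by 1.42 (adjusted p = 0.00222), and Junb (0.41, adjusted p = 0.397) and Jun (-0.13, adjusted p = 0.796) did not pass. Jund read 0.05, -0.39 and 0.56 at 3 h, 6 h and 24 h in line 178119 and 0.69, -0.28, -0.55 and 0.35 at the 4 times in line 28545. Without the 178119 array of 1 h, which lacked its value, Jund fell at 6 h (-0.47, adjusted p = 0.0187) and rose at 24 h (0.45, adjusted p = 0.0232). The Fosl2 probe that represents the gene stayed between -0.33 and 0.17 on the 8 arrays, near background in both channels. The other Fosl2 probe ran from -0.345 to 0.312. It was well above background only at 24 h in line 28545, where it read 0.312.

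**Figure D4:**
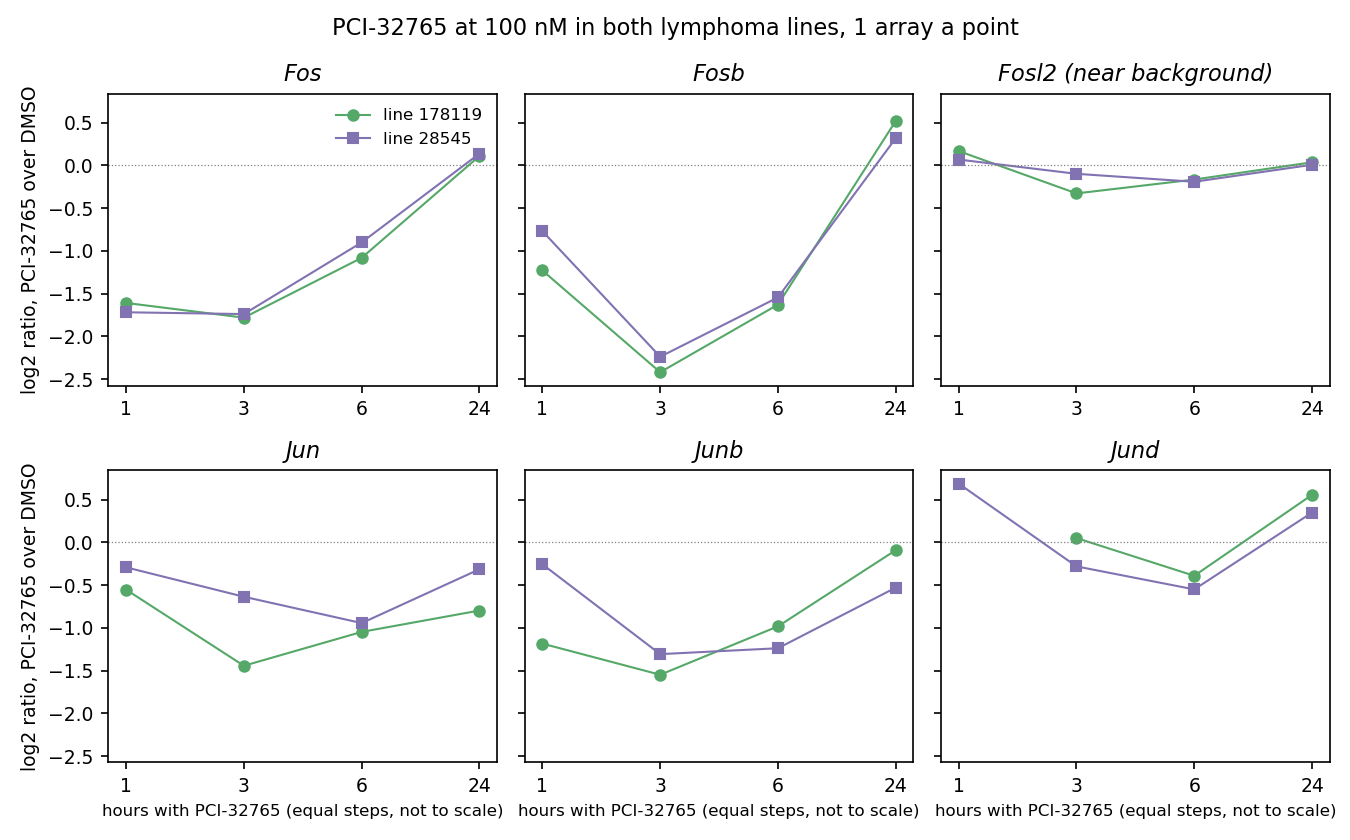
Log2 ratio of PCI-32765 over DMSO (vertical axis) against hours of treatment (horizontal axis) for each gene, 1 point per array and 1 drawn line per cell line, with times at equal steps, not to scale. Fos and Fosb are below 0 at 1 h, 3 h and 6 h in both lines and above 0 at 24 h, and Jun is below 0 at all 4 times, of which the 1 h mean turns to 0.38 under median centring.

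Among the 9 lymphoma lines Fos and Fosb had the largest SDs of the family. The SD over lines was 1.01 for Fos (percentile 97.2 of all genes tested), 0.80 for Fosb (95.2) and 0.60 for Fosl2 (90.7), and 0.47 for Jun (85.1), 0.34 for Jund (70.0) and 0.28 for Junb (59.8), against a median of 0.242 over all genes. Without the first array of line 1039 the SD was 0.27 for Fosl2 and 0.89 for Fos. Between 2 arrays of 1 line, Fos differed by 0.245 in line 1001 and 0.298 in line 1010. Line 1039, with its poor array, differed by 1.78. Line 1007 held the highest Fos and Fosb values.

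Over the 16 pool samples Pearson's r was 0.899 for Fosb with Jun, 0.863 for Fos with Jun, 0.833 for Fos with Fosb and 0.747 for Fos with Junb, whereas Fos with Fosl2 gave 0.172 and Junb with Fosl2 0.594. These are descriptions, since the samples share a pool and fall into groups. The genes closest to Fos were Sult1a1 (r = 0.921), a sulfotransferase, Dusp1 (0.903), a phosphatase of MAP kinases, and Apoc1 (0.876). Jun lay closest to Fosb (0.899), Sult1a1 (0.889) and Nxpe4 (0.866), Fosl2 to Cd14 (0.979) and H60b (0.978) among named genes, Junb to the erythroid gene Rhag (0.935), Agtr1a (0.929) and Tspo2 (0.922), and Jund to Frat1 (0.877) and Calm2 (0.863). Over the 8 drug arrays, the closest were Rnf19b (0.992), Degs1 (0.989) and Gsn (0.981) to Fos, Angptl4 (0.979) and Arrdc2 (0.97) to Fosb, Mul1 (0.951) to Jun and Stk4 (0.987) to Junb. There Fosb with Junb gave 0.887, Fos with Fosb 0.834 and Fos with Jun 0.207.

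Other genes of the AP-1 pathway were counted in lists. In lymphoma lines against untreated cells, 21.1% of all genes fell and 14.7% rose. Of the AP-1 partners (the other bZIP proteins), 8 of 17 fell and 3 rose, with a median of -1.38 against -0.01 over all genes. Bach2, a B cell repressor that competes for AP-1 sites, fell by 4.86 and was well above background on 6 of 12 lymphoma arrays. Maf, above background on 1 of 12 lymphoma arrays, fell by 2.52, and Jdp2, which represses AP-1 targets, rose by 3.31. Of 20 upstream kinases and factors tested, 6 fell and 1 rose (median -0.46), with Map3k1 at -2.19 and the SRF partners Mrtfa at -2.05 and Elk1 at -1.64. Of 17 turnover and feedback genes, 8 fell and 2 rose (median -0.74): Dusp1 fell by 3.60 and the mRNA decay factor Zfp36l1 fell by 2.83, and the phosphatase Dusp4 rose by 3.11. Of 18 other immediate early genes, 11 fell and 1 rose (median -1.40), with Nr4a1 at -4.85, Klf2 at -3.80 and Nr4a2 at -3.21. Of 19 AP-1 targets, 8 fell and 3 rose (median -0.48), with the chemokine Ccl4 at -5.40 (above background on 1 of 12 lymphoma arrays), Plaur at -3.71 and Il10 at 3.64.

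Against stimulated cells, where 24.8% of all genes fell and 21.2% rose, 9 partners fell and 2 rose (median -0.82, against 0.00 over all genes), 11 other immediate early genes fell and 2 rose (median -0.75), and 10 targets fell and 4 rose (median -0.93). Upstream factors had 4 lower and 2 higher (median -0.17) and turnover and feedback genes 6 lower and 4 higher (median -0.32). Bach2 fell by 5.44, Nr4a1 fell by 3.20 and Egr2 fell by 3.00. Against GC B cells, where 5.36% of all genes fell and 4.4% rose, the lists had 1 partner lower and 1 higher, 1 upstream factor lower and 1 higher, 2 turnover and feedback genes lower and 1 higher, 1 other immediate early gene lower and 0 higher, and 0 targets lower and 3 higher: Bach2 fell by 5.37 and Jdp2 rose by 2.34, Dusp1 fell by 1.98, Arc fell by 1.20, and Il10 rose by 3.64. Between GC and untreated B cells, where 6.92% of all genes fell and 4.62% rose, 4 partners, 4 upstream factors, 2 turnover and feedback genes, 6 other immediate early genes and 5 targets fell, and 1 gene each of the turnover and feedback and other immediate early lists rose. After anti-IgM in splenic cells, in the fit without a term for time, 0 genes of these lists passed by limma. Of all 22302 genes 0 passed too (1686 at an unadjusted p under 0.05). List medians were 0.06 for partners, -0.22 for upstream factors, -0.29 for turnover and feedback, -0.82 for other immediate early genes and 0.49 for targets.

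With PCI-32765 most genes of the immediate early list fell, where 15.7% of all genes fell and 16.7% rose. As the mean of 4 times, 10 of 16 fell and 2 rose (median -0.26, against 0.005 over all genes), with Egr1 at -2.32, Egr2 at -1.56 and Myc at -1.54. At 1 h, where 0.0725% of all genes fell, it held 3 falls, Egr1 (-2.42), Egr2 (-2.13) and Myc (-1.05), and the only other call in any list was the activation marker Cd69 (-1.45). At 3 h, where 4.12% of all genes fell and 3.08% rose, 9 of its genes fell and 1 rose, with Egr1 at -3.46, Egr2 at -2.47 and Myc at -2.47. At 24 h minus 1 h Egr2 rose by 1.77, Egr1 by 1.45 and Klf6 by 0.76, in the same direction as Fos and Fosb. Of the partners, 7 of 14 fell and 2 rose as the mean of 4 times, led by Batf (-0.87), the partner of JUN proteins at composite sites with IRF factors, and Fosl1 (-0.49), which encodes FRA1. Turnover and feedback genes had 8 of 14 lower and 0 higher (Dusp4 -0.47, Zfp36l1 -0.32, Dusp2 -0.29), upstream factors 4 of 18 lower and 2 higher, and targets 3 of 13 lower and 4 higher (Cd69 -1.22, Tnf -0.88, Il10 -0.32).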

How the data were processed

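Mean and background signals were deposited as intensity in scanner files, made with Feature Extraction 10.1.1.1 per the file headers (the submitters' processing notes name 9.1, and limma). Per the file headers, the scanner's own log ratio is log10 of Cy5 over Cy3. The deposited series table matched it within 5e-04, with column medians of -0.094 to 0.058, so its scale is log10, uncentred, Cy5 over Cy3. Background was removed by normexp (offset 50) and arrays normalised by loess in limma 3.58.1 under R 4.3.3. Control and outlier spots were left out, and spots of 1 probe averaged. Probes entered a fit where at least 0.5 of its arrays read them well above background in Cy5 or Cy3, and the brightest probe represented a symbol. The log2 ratios made from the deposited signals were averaged over technical repeats and tested with lmFit and eBayes on genes without missing values (187, 14 and 1587 left out of the pool, splenic and drug fits), with Benjamini-Hochberg adjustment at 0.05. The fits had 12, 3 and 4 residual degrees of freedom. Scripts were checked on simulated data.

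Members and lists were chosen with earlier results of these data known. Named list genes were the 3 largest called differences of each list, and likeness genes the 3 highest correlations. Alternatives covered background, normalisation, filter, probes, repeats, slides, blocks and left-out samples. Python 3.11.15 with pandas 2.3.3, numpy 2.4.6 and matplotlib 3.10.9 made promoter tables and figures. No dye was swapped, so a dye bias of a probe is common to all arrays and cancels between pool samples but not in drug ratios.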

Additional observations from a re-analysis of the deposited data

Results flagged for a closer look

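In the 4 stimulated samples the ATMKO 3 h sample lay apart from the others, with Fos at -1.894 and Fosb at -1.069. Among the 9 lymphoma lines, Fosl2 in line 1039 was -1.612, apart from the other lines, and was -3.22 without the first array of that line. These were 3 of 12 groups checked, and chance marks about 1 in 20 where groups are independent. The stimulated group mixes times and genotypes, and Fos and Fosb mark the same sample. The Fosl2 value rests on a poor array, so the count cannot be compared with that rate. Fosl2 moved in opposite directions between untreated cells and 6 h of anti-IgM, by 1.700 in ATMWT and -0.757 in ATMKO cells, with 1 sample each, and this difference was not tested.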

How the results depend on the processing

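Over 1378 combinations of member, comparison and alternative, 1245 kept direction and side of the threshold, 76 lost a call, 29 gained one and 28 changed sign, 0 of them called, and the causes were not tested. Members called in GC against untreated cells (2 here) were 1 with no background correction, the scanner log ratio, median centring, no filter on dim probes, the mean of probes, without the first 1039 array or without the first untreated ATMKO array, 0 with the first repeat only or slide 2 alone, and 4 on slide 4 alone. In lymphoma against GC (1 here) they were 0 with the scanner log ratio, no dim filter, the first repeat only or slide 4 alone. On slide 3 alone they were 0 against untreated cells (5 here) and 1 against stimulated cells (3 here). On slide 2 alone Jund against stimulated cells (0.92, adjusted p = 0.0661) did not pass and Jun against stimulated cells (1.24, adjusted p = 0.0229) did. There Fosb differed by -1.64 from untreated cells, and Fosl2 by -2.48 and Fos by -2.27 from GC B cells. Untreated and GC cells are 1 array each on that slide. Its GC array is the poor first GC array, on which Fos and Fosl2 were not well above background in Cy5. The setting with the first repeat only also takes that array as its GC sample. On slide 4 alone Jund (1.07, adjusted p = 0.158) and Fosb (2.11, adjusted p = 0.0506) did not pass against stimulated cells and Jun (0.96, adjusted p = 0.0422) did. For anti-IgM (0 here) they were 3 with the slide as a block (195 genes in all), 5 in the 6 h and untreated samples alone (6402 genes, 1 residual degree of freedom) and 4 in all 16 pool samples. For PCI-32765 at 24 h (2 here) they were 0 with the scanner log ratio and 1 with no background correction, median centring or no dim filter. At 1 h (2 here) they were 1 with the scanner log ratio or median centring, and at 24 h minus 1 h (2 here) 1 with the scanner log ratio. Leaving out 1 sample gave 4 to 6 called members against untreated cells, 3 to 4 against stimulated cells, 0 to 1 against GC, 0 to 3 for GC against untreated cells, 4 for the PCI-32765 mean, 1 to 3 at 1 h, 2 to 4 at 3 h, 3 to 5 at 6 h (Jund entering where the array that lacked it was left out), 0 to 2 at 24 h, 2 at 24 h minus 1 h, and 0 for anti-IgM, genotype and lines.

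Signs that changed were, under median centring, Jun at 1 h (0.38), Junb at 24 h (0.079) and the line differences of Junb (-0.029) and Fos (-0.076). With the slide as a block the genotype differences were -0.12 for Fosb, -0.69 for Fos and -0.016 for Junb, and in the 6 h and untreated samples alone -0.12 for Jun and -0.34 for Fos. Junb against stimulated cells was 0.10 on slide 2 alone, and Fosl2 against GC was 0.39 on slide 4 alone, 0.49 without the first GC array and 0.31 without both poor arrays. With 1 sample left out, Fosl2 after anti-IgM ran from -0.74 to 1.70. The genotype difference ran from -0.18 to 2.26 for Fosl2, -0.059 to 1.26 for Jund, -0.22 to 0.64 for Jun and -0.50 to 0.43 for Fos. The 24 h minus 1 h difference ran from -0.054 to 0.87 for Junb and -0.37 to 0.11 for Jun, and the line difference from -0.15 to 0.30 for Junb and -0.013 to 0.083 for Fos.

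Counts of all genes called ranged from 540 to 8541 (7674 here) against untreated cells, 857 to 10101 (9844) against stimulated cells, 275 to 3309 (2090) against GC, 280 to 3702 (2470) for GC against untreated cells, 0 to 6402 (0) for anti-IgM, 0 to 13 (0) for genotype and, with PCI-32765, 4050 to 13108 (5811) for the mean, 8 to 10875 (18) at 1 h, 136 to 10497 (1291) at 3 h, 1308 to 4859 (4353) at 6 h, 1418 to 4301 (4139) at 24 h, 301 to 1481 (1270) at 24 h minus 1 h and 0 to 72 (0) between lines. Median centring split them into 546 higher and 1256 lower against GC (942 and 1148 here, with a median of all genes of -0.13), 3260 and 5652 against stimulated cells (4529 and 5315), 953 and 1131 for GC against untreated cells (989 and 1481), and, with PCI-32765, 10861 and 14 at 1 h, 10429 and 68 at 3 h, 3078 and 276 at 6 h, 3871 and 108 at 24 h and 82 and 489 at 24 h minus 1 h, where the median of all genes shifted by 0.60, 0.58, 0.24, 0.30 and -0.21. Adding the line as a fixed term to the PCI-32765 fit kept 4 called members for the mean. No paired analysis was possible because the labels tie no repeat number of 1 group to that of another. Signal over background limits Fosl2 in lymphoma, GC and drug-treated cells.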
